A study of Mus musculus with 4 samples.

Results

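The genes described here encode the chaperones and folding enzymes of the endoplasmic reticulum (ER): 33 genes chosen by symbol, all of which were found once each among the 55487 genes of the deposited table and all of which passed the filter on low counts. They were measured by poly(A) RNA sequencing of tumours grown from AXT cells (mouse osteosarcoma, obtained by c-MYC overexpression in stromal cells of the bone marrow), taken 1 day after 2000000 cells in matrigel had been placed in C57BL/6scid mice. The tested cells had lost HIF-1alpha, the transcription factor of the hypoxia response and product of Hif1a, in 3 lines named HIF-1alphaKO AXT1-1, AXT1-2 and AXT2. The reference was 1 line, Mock AXT, whose genotype is labelled WT. Both groups share the AXT background, the matrigel and the host. The host lacks T and B lymphocytes but keeps myeloid cells, blood and stroma that enter a bulk tumour. There were 3 knockout libraries, called c11, c15 and c22 in the table, and 1 mock library. The match of these columns to the named lines, and the number of animals behind each library, were not given in the sources used.

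Secreted and membrane proteins fold in the ER lumen, where the HSP70 chaperone BiP (Hspa5) and its co-chaperones hold unfolded chains, a lectin cycle built on calnexin and calreticulin retains glycoproteins, disulfide isomerases pair cysteines and prolyl isomerases speed the turns that collagen needs. When unfolded protein accumulates, the sensors PERK, IRE1 and ATF6 start the unfolded protein response, which raises the genes of many of these proteins. Osteoblasts and osteosarcoma cells secrete much collagen, so this machinery is abundant in them.

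Total counts were between 12910058 and 13193264 in the knockout libraries and 12383719 in mock, and a count of 0 allowed at most 0.232716 CPM (counts scaled by library size) in the knockout libraries and 0.241735 CPM in mock, counting error only. Hif1a RNA was at 102, 98.8 and 22.7 CPM across c11, c15 and c22, against 107 CPM in mock, so the locus was transcribed near the mock level in c11 and c15. A count over all exons does not show whether intact protein was made. Among 9 osteoblast lineage genes that check the labelled cell type, Runx2 was at 118 to 139 CPM in the knockout libraries and 244 CPM in mock, and Sp7 at 64.7 to 144 CPM and 176 CPM. In the other direction Col1a1 was at 1887, 1094 and 4769 CPM across c11, c15 and c22, against 860.1 CPM in mock. The summed level of the 9 was 1999 to 5376 CPM in the knockout libraries and 1806 CPM in mock. Col1a1 made up most of that sum in each knockout library, and without it the sum lay below mock in every one. Of the 9, 1 had every knockout library above mock, against 21.4% of all genes tested, and 5 below, against 22.2%. Lists of host cell markers mostly summed lower in every knockout library than in mock. The summed level of 10 macrophage genes was 251 to 461 CPM in the knockout libraries and 824 CPM in mock. That of 9 skeletal muscle genes was 1.59 to 24.1 CPM and 108 CPM, and that of 7 erythroid genes 1.604 to 41.7 CPM and 116 CPM. Lyz2 alone held 553 CPM of the macrophage sum in mock. Of the 10 genes, 8 had every knockout library below mock, against 22.2% of all genes. Endothelial and adipocyte lists summed to at most 4.19 CPM in any library. The sum of 5 host fibroblast genes was 20.5, 81.9 and 94.6 CPM across c11, c15 and c22, against 100.8 CPM in mock. Neutrophil genes lay above mock in c15 and c22, with a sum of 2.98, 10.4 and 10.5 CPM, against 7.57 CPM. The part of these host cells in the values of the folding genes was not tested. Of 5 plasma cell markers, which mark cells rich in these chaperones, Igkc and Tnfrsf17 had 0 counts in every library. Jchain and Mzb1 had at most 0.155 CPM. Plasma cells come from B lymphocytes, which the host lacks, so these low values were set in advance by the design. The fifth, Sdc1, which other cells also express, was at 272, 121 and 189 CPM across c11, c15 and c22, against 193 CPM in mock, and made up nearly all of the list's summed level of 121 to 272 CPM in the knockout libraries and 193 CPM in mock. In bulk tissue, fewer cells of a type and less RNA per cell cannot be told apart.

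As a group, the folding genes took a larger share of the RNA in the knockout tumours. Together the 33 genes made up 1.84%, 1.35% and 1.53% of counts across c11, c15 and c22, against 0.859% in mock. The summed level was 18185, 13528 and 15477 CPM across c11, c15 and c22, which averaged 15730 ± 2338 CPM (SD, n = 3), against 8569 CPM in mock, a 1.84-fold difference. Every knockout library lay above mock. Hspa5 alone supplied 22.04%, 21.02% and 14.01% of the members' counts across c11, c15 and c22 and 7.66% in mock, and without it the summed level still averaged 12723 ± 1817 CPM in the knockout libraries against 7913 CPM in mock, a 1.61-fold difference.

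**Figure D1:**
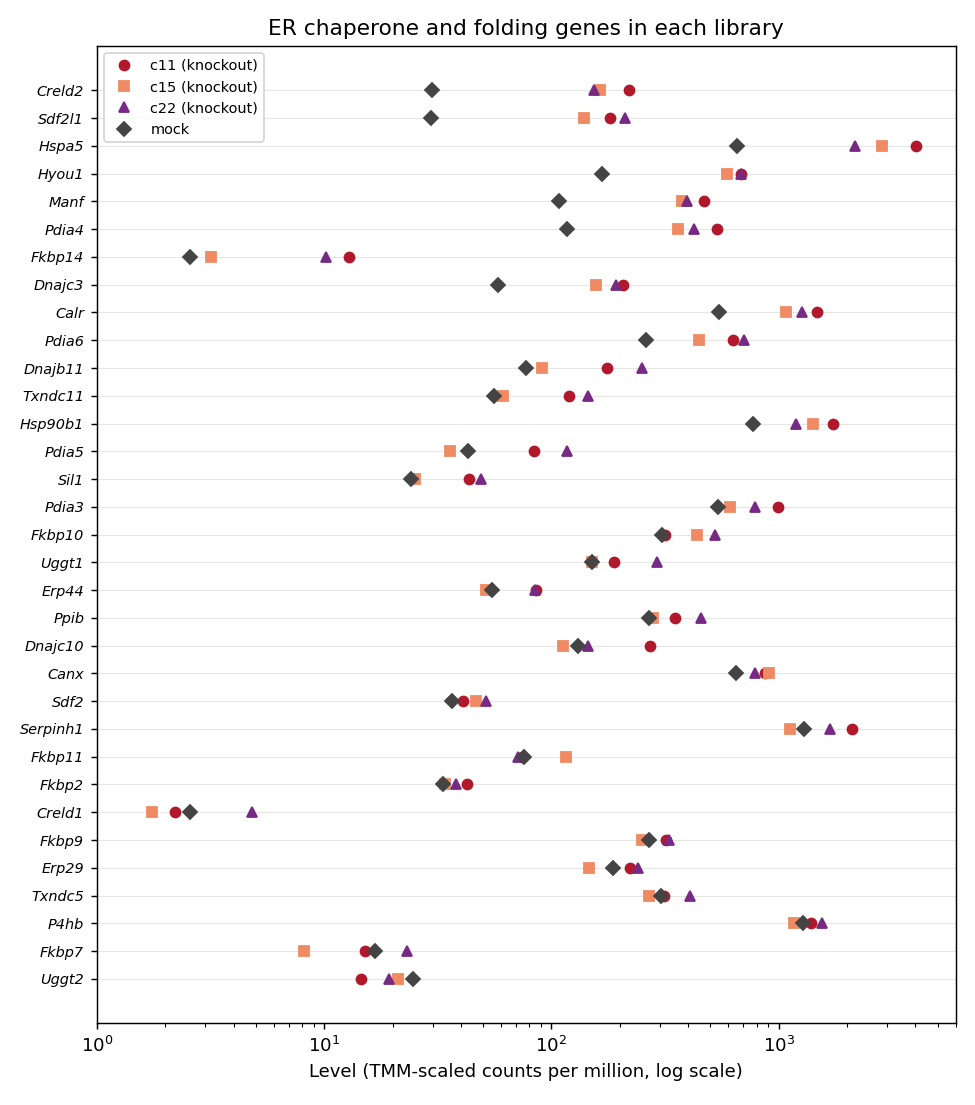
Level of each of the 33 folding genes in each library, in TMM-scaled CPM on a log axis, with genes ordered from the highest to the lowest fitted fold change. Red circles, orange squares and purple triangles are the knockout libraries c11, c15 and c22 and dark grey diamonds are mock; for the 6 genes at the top, all 3 knockout symbols stand well to the right of mock, and towards the bottom the symbols mix.

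The difference was uneven across the genes. Of the 33, 20 had all 3 knockout libraries above mock, where the same held for 21.4% of the 15706 genes tested, and 1 had all 3 below, where the same held for 22.2%. The median log2 fold change (knockout minus mock) was 0.48 over the members and 0.05 over all genes tested, and 31 members had a positive value. At least a 2-fold difference in every knockout library was seen for 7 members, against 2.24% of all genes: Creld2, Sdf2l1, Hspa5, Hyou1, Manf, Pdia4 and Dnajc3. The same 7 were called higher by DESeq2, which called 0.314% of the genes it tested higher. With edgeR's quasi-likelihood test, the main test, 0 members passed an adjusted p of 0.05 over all genes, as was true of 0% of all genes on the higher side, and 0 were lower, against 0.00637% of all genes. A fitted log2 fold change of at least 1 was seen for 11 members, against 8.23% of all genes, and of at most -1 for 0, against 6.45%. At an unadjusted p under 0.05, edgeR had 10 members higher, against 1.12% of all genes, and 0 lower, against 2.56%. Without c15 those numbers were 15 members higher, against 3.77% of all genes, and 0 lower, against 4.87%. limma-voom called 0 members, and an earlier form of the edgeR fit called 0 with the filter on low counts and 5 without it (Creld2, Sdf2l1, Hspa5, Hyou1 and Manf). The comparison rests on a single mock library, assumed to vary as the knockout libraries do.

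The element through which the unfolded protein response reaches many of these genes is the ER stress response element (ERSE), the paired sites CCAAT and CCACG with 9 bases between them, read by NF-Y and ATF6. Windows from 250 bases before to 50 after the start site were available from RefSeq (build GRCm38.p6) for 28 of the 33 genes, and an exact ERSE on either strand was found in 7 of them, 25% of the windowed members, against 0.137% of 27025 genes with a window and 0.208% of the 10593 tested ones. Both shares over all genes include the members. Because the element is known from genes of this kind, the higher share among members describes them and tests nothing. The 7 were Creld2, Hspa5, Dnajc3, Calr, Pdia6, Hsp90b1 and Canx, with 2 elements in Hsp90b1. They are printed 5′ to 3′ on the strand of the gene, with the paired sites in capitals, because they are the element that these 7 members share; an element on the opposite strand reads CGTGG and then ATTGG.
Creld2, chr15:88819504-88819554, plus strand: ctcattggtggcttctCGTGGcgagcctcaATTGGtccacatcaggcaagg
Hspa5, chr2:34772009-34772059, plus strand: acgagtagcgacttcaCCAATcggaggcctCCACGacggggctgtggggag
Dnajc3, chr14:118937811-118937861, plus strand: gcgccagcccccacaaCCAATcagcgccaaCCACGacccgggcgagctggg
Calr, chr8:84847059-84847109, minus strand: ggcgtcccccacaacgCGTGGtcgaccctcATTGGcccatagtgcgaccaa
Pdia6, chr12:17266475-17266525, plus strand: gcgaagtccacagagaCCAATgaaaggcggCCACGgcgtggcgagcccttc
Hsp90b1, far element, chr10:86705622-86705672, minus strand: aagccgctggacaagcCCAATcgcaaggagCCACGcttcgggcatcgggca
Hsp90b1, near element, chr10:86705517-86705567, minus strand: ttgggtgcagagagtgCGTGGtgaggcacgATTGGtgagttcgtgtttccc
Canx, chr11:50325784-50325834, minus strand: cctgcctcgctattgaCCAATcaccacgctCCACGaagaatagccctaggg

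The elements began between 65 bases (Hspa5) and 212 bases (the far element of Hsp90b1) before the start site. All 7 genes that carry one had every knockout library above mock, and their median log2 fold change was 1.22, from 0.40 for Canx to 2.59 for Creld2, against 0.43 for the 21 windowed members without an exact match. Outside the folding genes, of 15 other tested genes with an exact ERSE, 4 had all knockout libraries above mock, where the same held for 21.4% of all genes tested. The log2 fold changes of the 15 ran from -6.92 to 3.55 with a median of 0.05. Those 4 were Zfp57, Ero1lb, Alg12 and Syvn1, of which Ero1lb, Alg12 and Syvn1 serve ER oxidation, glycan assembly and ER-associated degradation; they were named after their values were seen. Sdf2l1 and Pdia4, both among the highest members, had no exact match in this window. The 5 members without a window, Hyou1, Manf, Sil1, Fkbp10 and Erp29, were not searched and enter none of the medians by motif. Of these, Hyou1 and Manf, with log2 fold changes of 1.97 and 1.94, were also among the highest members. The related ERSE-II, ATTGG and CCACG separated by 1 base, was found in Dnajb11 alone among the members and in 0.085% of tested genes, and the unfolded protein response element TGACGTGG was found in Txndc11 and Txndc5 and in 1.03% of tested genes. The core of the hypoxia response element, ACGTG, was found in 14 members, 50% of the 28 with a window. It was found in 29.2% of tested genes. Counted per window and per strand, 15 of its 24 matches in members overlapped a CCACG and none overlapped an ERSE. A site in overlapping windows, or matched on both strands, was counted more than once. Members with that core had a median log2 fold change of 0.66 and those without it 0.45.

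The HSP70 system held 5 of the 7 genes with at least a 2-fold difference in every knockout library. The summed level of its 9 genes was 6083, 4387 and 4152 CPM across c11, c15 and c22, against 1287 CPM in mock, and 8 of the 9 had every knockout library above mock, against 21.4% of all genes tested. Hspa5 (chromosome 2, 34771970 to 34777547), the gene of BiP itself, was at 4009, 2843 and 2168 CPM across c11, c15 and c22, against 656 CPM in mock. The lowest knockout library thus held more than 3 times the mock level, and the knockout libraries ran in a wide range of 1.85-fold among themselves. Its log2 fold change stood at 2.20 (SE 0.45, edgeR adjusted p = 0.405).

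Sdf2l1 (chromosome 16, 17130138 to 17132383), an ER-resident partner of the ERdj3 co-chaperone, was at 181, 139 and 212 CPM across c11, c15 and c22, against 29.4 CPM in mock (log2 fold change 2.59, SE 0.42, edgeR adjusted p = 0.272). Its paralogue Sdf2, on chromosome 11, was at 40.8, 46.8 and 51.5 CPM in the same libraries and 36.4 CPM in mock. All knockout libraries lay above mock for both genes, yet the log2 fold change was 0.35 (SE 0.34) for Sdf2. Hyou1 (chromosome 9, 44379490 to 44392369), a large HSP70-like chaperone that releases ADP from BiP, was at 686, 595 and 686 CPM across c11, c15 and c22, against 167 CPM in mock. It was the most even of the large differences, with a log2 fold change of 1.97 (SE 0.31, edgeR adjusted p = 0.271) and an SD of 52.5 CPM around a knockout mean of 656 CPM. Manf (chromosome 9, 106838312 to 106891979), a small secreted and ER-resident protein that binds BiP, was at 469, 377 and 396 CPM across c11, c15 and c22, against 108 CPM in mock (log2 fold change 1.94, SE 0.33, edgeR adjusted p = 0.314).

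The J-domain co-chaperones, which deliver clients to BiP and start its ATP cycle, spread over a range of fold changes. Dnajc3 (chromosome 14, 118937976 to 118981697), known as p58IPK, was at 206, 157 and 193 CPM across c11, c15 and c22, against 58.1 CPM in mock (log2 fold change 1.67, SE 0.35, edgeR adjusted p = 0.419). Its neighbour Uggt2 lies 3341 bases away on the other strand and was lower in every knockout library. Dnajb11 (chromosome 16, 22857845 to 22879634), the ERdj3 gene, was at 176, 91.2 and 252 CPM, against 77.6 CPM in mock, so c15 stood close to mock and c22 was highest. Dnajc10, which encodes the reductase co-chaperone ERdj5, was at 272, 112 and 145 CPM, against 131 CPM in mock; it was high in c11 alone, and its log2 fold change of 0.43 (SE 0.55) became -0.02 when c11 was left out. Sil1, the other nucleotide exchange factor of BiP, was at 43.2, 25.0 and 48.8 CPM, against 24.0 CPM in mock.

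Hsp90b1 (chromosome 10, 86690209 to 86705509), the GRP94 chaperone of integrins, Toll-like receptors and growth factors, was at 1729, 1421 and 1197 CPM across c11, c15 and c22, against 767 CPM in mock. The groups did not overlap, with a log2 fold change of 0.92 (SE 0.33) that did not pass the edgeR test (adjusted p = 1.00). The annotated gene 1810014B01Rik shares 415 exon bases with it on the opposite strand and was at 654, 535 and 500 CPM, against 306 CPM in mock, in the same order of libraries. The opposite-strand neighbour of Manf, 4930524O07Rik, shares 166 exon bases and was at 108, 93.3 and 80.4 CPM, against 25.4 CPM in mock, a 3.70-fold difference beside 3.85-fold for Manf. Snx22, opposite Ppib over 825 exon bases, had 1.42 times the mock level beside 1.35 times for Ppib. These 3 neighbours were picked after their values were seen, and other opposite-strand partners did not follow their member. Dcaf1, opposite Manf over 146 exon bases, had 0.917 times the mock level. Plekha8, opposite Fkbp14 over 208 exon bases, had 1.35 times the mock level beside 3.38 times for Fkbp14. The sources used give no strand setting for the counting. Over the shared exon bases, reads of these genes and of their opposite-strand partners therefore cannot be told apart.

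The lectin cycle is built on a soluble and a membrane-bound lectin. Calr (chromosome 8, 84841850 to 84846934), which encodes soluble calreticulin, was at 1476, 1078 and 1268 CPM across c11, c15 and c22, against 547 CPM in mock, and its log2 fold change came to 1.22 (SE 0.32, edgeR adjusted p = 0.688). Canx, the gene of membrane-bound calnexin, was at 868, 905 and 787 CPM, against 646 CPM in mock (log2 fold change 0.40, SE 0.27). Both had every knockout library above mock; whether the 2 fold changes differ was not tested. Pdia3, the disulfide isomerase that both lectins recruit, was at 991, 613 and 787 CPM, against 542 CPM in mock.

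The glucosyltransferases that send misfolded glycoproteins back into the cycle gave no common direction. Uggt1 was at 188, 151 and 291 CPM across c11, c15 and c22, against 151 CPM in mock, with c15 at the mock level. Uggt2 was at 14.6, 21.2 and 19.4 CPM, against 24.5 CPM in mock (log2 fold change -0.41, SE 0.40, edgeR adjusted p = 1.00), and it was the one member with all knockout libraries below mock.

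**Figure D2:**
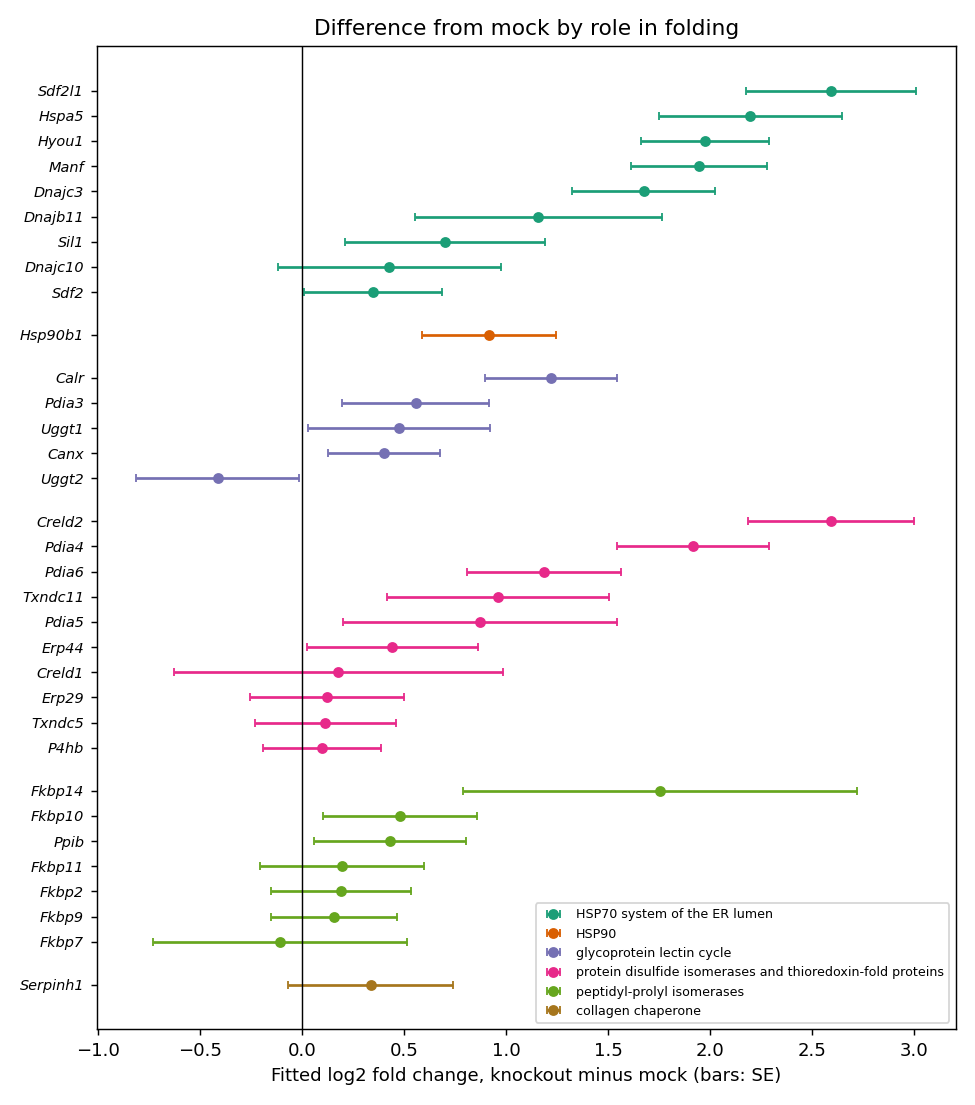
Fitted log2 fold change of each gene, knockout minus mock, with bars of 1 SE, grouped by role. The HSP70 system runs from 0.35 (Sdf2) to 2.59 (Sdf2l1), the disulfide isomerase group from 0.10 (P4hb) to 2.59 (Creld2), and most prolyl isomerases lie within 0.5 of zero.

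The 10 protein disulfide isomerases and thioredoxin-fold proteins included 4 with every knockout library above mock, against 21.4% of all genes tested, and 0 with every one below, against 22.2%. Creld2 (chromosome 15, 88819646 to 88826683), an ER-stress-induced protein with disulfide isomerase activity, was at 220, 164 and 155 CPM across c11, c15 and c22, against 29.7 CPM in mock. Its log2 fold change of 2.59 (SE 0.41, edgeR adjusted p = 0.269) was the highest of the 33. Creld1, its paralogue, was at 2.22, 1.75 and 4.81 CPM, against 2.58 CPM in mock, with mock inside the range of the knockout libraries. Pdia4 (chromosome 6, 47796141 to 47813430), the ERp72 isomerase, was at 533, 363 and 425 CPM, against 117 CPM in mock (log2 fold change 1.92, SE 0.37, edgeR adjusted p = 0.369). Pdia6 (chromosome 12, 17266545 to 17284770), the isomerase that acts on the IRE1 sensor as well as on clients, was at 631, 446 and 706 CPM, against 262 CPM in mock (log2 fold change 1.18, SE 0.38, edgeR adjusted p = 1.00).

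P4hb, the gene of the founding isomerase PDI and of the beta subunit of collagen prolyl 4-hydroxylase, was abundant and nearly level. It was at 1392, 1172 and 1553 CPM across c11, c15 and c22, against 1283 CPM in mock (log2 fold change 0.10, SE 0.29), so mock lay inside the range of the knockout libraries. The same held for Txndc5, at 312, 268 and 407 CPM against 304 CPM in mock, and for Erp29, at 222, 146 and 240 CPM against 186 CPM. Erp44, which retains oxidases and unassembled immunoglobulin in the early secretory pathway, was at 85.9, 51.3 and 85.1 CPM, against 54.6 CPM in mock. Txndc11 (chromosome 16, 11074911 to 11134650) was at 120, 61.4 and 145 CPM, against 55.9 CPM in mock, and Pdia5 at 84.0, 36.0 and 117 CPM, against 43.2 CPM, with c15 near mock for each.

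The prolyl isomerases were mostly close to mock. Fkbp14 (chromosome 6, 54577604 to 54597308), an isomerase for collagen, was at 12.8, 3.19 and 10.2 CPM across c11, c15 and c22, against 2.58 CPM in mock; it was the least abundant of the genes with a high fold change (1.75, SE 0.97), with 32 counts in mock and 42 in c15. Fkbp10, the collagen isomerase FKBP65, was at 316, 437 and 527 CPM, against 306 CPM in mock. Ppib, cyclophilin B, was at 350, 279 and 457 CPM, against 268 CPM in mock. Fkbp2 was at 42.4, 34.0 and 38.2 CPM, against 33.4 CPM in mock, and Fkbp9 at 321, 251 and 328 CPM, against 269 CPM. Fkbp11 was above mock in c15 alone, at 74.1, 116 and 71.5 CPM against 76.1 CPM, and Fkbp7 in c22 alone, at 15.1, 8.20 and 23.1 CPM against 16.7 CPM. The collagen-specific chaperone Serpinh1, known as HSP47, was at 2104, 1116 and 1682 CPM, against 1294 CPM in mock, with c15 below mock and the other knockout libraries above it.

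**Figure D3:**
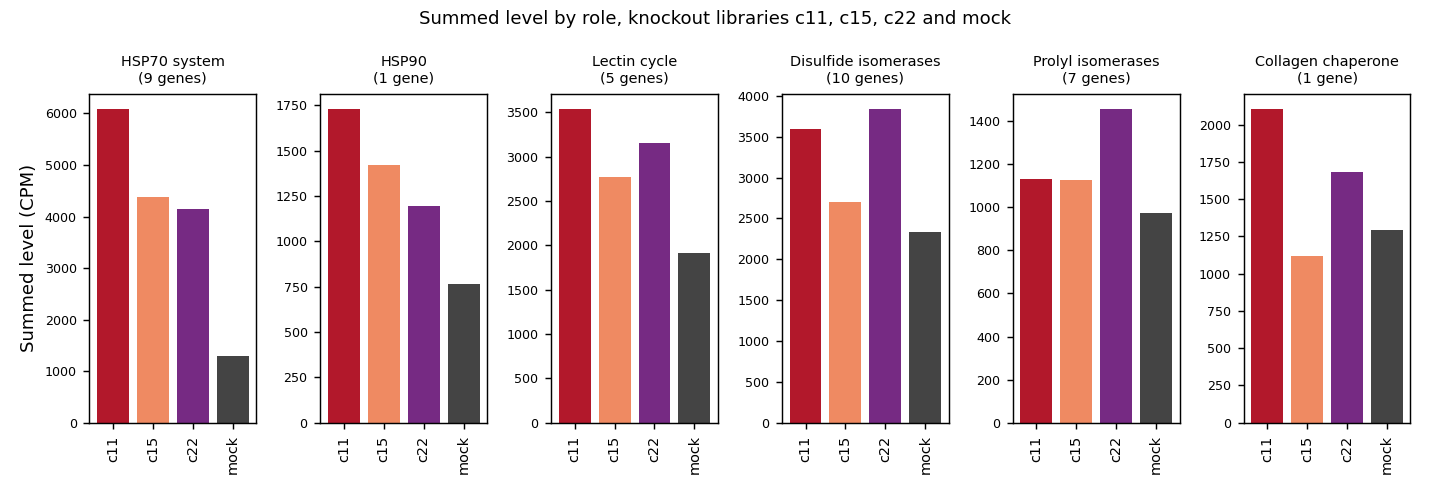
Summed level of each role group in CPM, in the knockout libraries c11, c15 and c22 and in mock, with each panel on its own axis from 0. In the HSP70 panel every knockout bar is over 3 times the mock bar, while for the 7 prolyl isomerases the bars lie between 973 CPM in mock and 1455 CPM in c22.

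Scaled by the union length of annotated exons, so that levels can be set side by side between genes, the order of the most abundant members differed between the groups. In mock the order was Serpinh1 at 530 CPM per kilobase, P4hb at 449, Hsp90b1 and Calr each at 190, Pdia3 at 173 and Hspa5 at 155 CPM per kilobase. In the knockout libraries Hspa5 averaged 711 ± 220 CPM per kilobase (SD, n = 3) and ranked 1 in c11 and c15 and 3 in c22. Serpinh1 averaged 669 ± 203, P4hb 480 ± 66.8, Calr 442 ± 69.2 and Hsp90b1 359 ± 66.2 CPM per kilobase. Hspa5 and Serpinh1 differed by less than the SD of either, as did P4hb and Calr. Serpinh1 and P4hb differed by less than the SD of Serpinh1 but more than that of P4hb, and Calr and Hsp90b1 by more than the SD of either. At the other end stood Creld1 with 0.688 ± 0.388, Uggt2 with 1.44 ± 0.266 and Fkbp14 with 2.104 ± 1.20 CPM per kilobase in the knockout libraries, against 0.607, 1.91 and 0.622 CPM per kilobase in mock.

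The knockout libraries were not alike. Library c15 was the lowest of the 3 for 25 of the 33 genes, where it was lowest for 37.0% of all genes tested, and 12 members were below mock in c15, against 4 in c11 and 2 in c22. Both c11 and c22 were above mock for 29 members, against 35.2% of all genes, and all 3 libraries for 20, against 21.4%. For 9 members c15 alone was below mock: Pdia5, Uggt1, Erp44, Dnajc10, Serpinh1, Fkbp9, Erp29, Txndc5 and P4hb. Over the members, c11 had a median log2 ratio to mock of 0.84, c15 of 0.18 and c22 of 0.78. Over all genes tested the median was 0.0097 in c11, -0.0069 in c15 and -0.0101 in c22. Genes as a whole thus lay below mock about as often as above it, and members less often, in c15 too. Of the 7 genes with at least a 2-fold difference in every library, c15 was lowest for 5, while Hspa5 and Creld2 were lowest in c22, which was the lowest library for 34.1% of all genes and 5 members. Fibrillar and related collagen chains, the main cargo of Serpinh1, Fkbp10 and Fkbp14, were also lowest in c15, with a summed level of 5811, 3287 and 10577 CPM across c11, c15 and c22, against 4235 CPM in mock. Of the 10 tested, 1 had every knockout library above mock, against 21.4% of all genes, and 0 below, against 22.2%. The extremes were Col6a1, with a log2 fold change of 3.32 (SE 1.901), Col6a2, with 2.55 (SE 1.79), Col1a2, with -0.16 (SE 0.63), and Col12a1, with -0.63 (SE 0.86). The part of this in the lower folding genes of c15 was not tested.

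**Figure D4:**
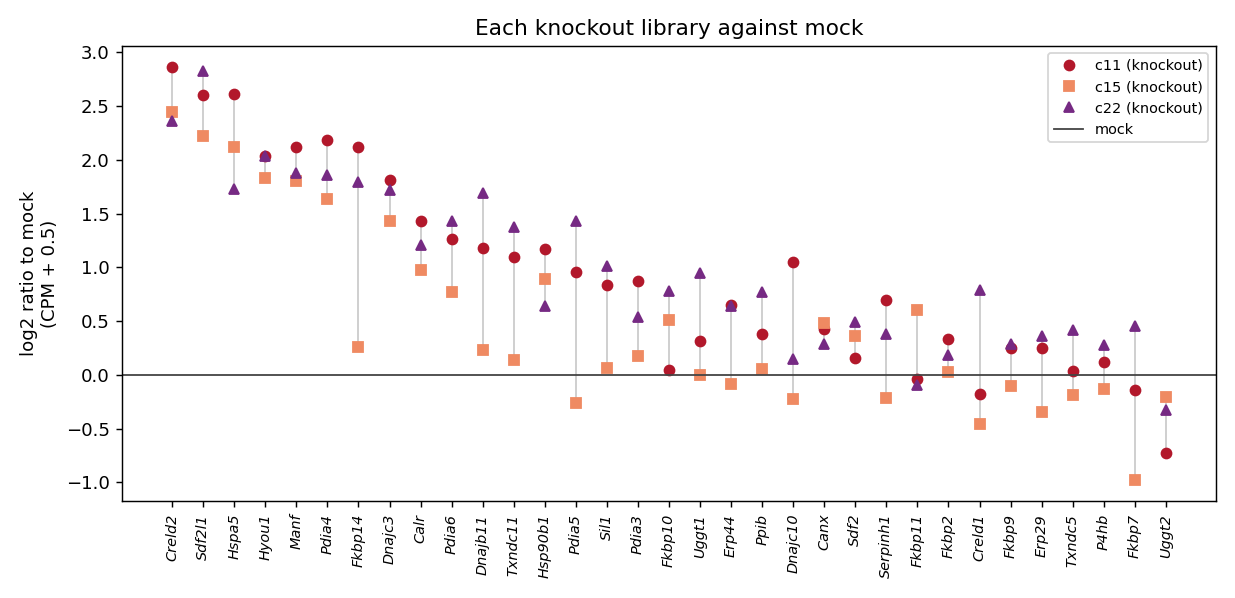
log2 ratio of each knockout library to mock (CPM with 0.5 added) for the 33 genes, ordered by fitted fold change; the line at 0 is mock. The 3 symbols lie close together for genes such as Hyou1 and Canx and far apart for Fkbp14, Dnajb11, Txndc11 and Pdia5, where the orange squares of c15 sit near or below 0.

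Other parts of the same pathway were described from lists of named genes. For each list below, the shares of all genes tested to set beside its counts are 21.4% with every knockout library above mock and 22.2% below. Of 12 sensors and transcription factors of the unfolded protein response, 7 had every knockout library above mock and 0 below, with a median log2 fold change of 0.35; edgeR called 0, had 3 higher at an unadjusted p under 0.05, and DESeq2 called 1, Ddit3. Ddit3, which encodes the CHOP factor, was at 179, 206 and 75.1 CPM across c11, c15 and c22, against 21.3 CPM in mock. Atf4, translated when eIF2alpha is phosphorylated, was at 525, 574 and 538 CPM, against 306 CPM in mock. Xbp1, the target of IRE1, was at 114, 95.03 and 123 CPM, against 57.6 CPM, and Atf6 itself at 158, 179 and 257 CPM, against 147 CPM. The lowest values of that list were those of Mbtps2, with a log2 fold change of -0.15 (SE 0.42), and Nfyb, with 0.03 (SE 0.33).

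Genes of ER-associated degradation, which removes proteins that fail to fold, stood higher as well. Of 17 tested, 13 had every knockout library above mock and 0 below, with a median log2 fold change of 0.49; edgeR called 0, had 6 higher at an unadjusted p under 0.05, and DESeq2 called 3, Herpud1, Sel1l and Edem1, the last named after its values were seen. Herpud1 was at 233, 280 and 147 CPM across c11, c15 and c22, against 51.0 CPM in mock, and Sel1l, the adaptor of the HRD1 ligase, at 288, 212 and 298 CPM, against 71.8 CPM. Unlike the folding genes, this list had a median log2 ratio in c15 (0.61) between those of c11 (0.55) and c22 (0.69). The lowest were Edem2, with a log2 fold change of 0.07 (SE 0.46), and Ube2g2, with 0.27 (SE 0.40).

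**Figure D5:**
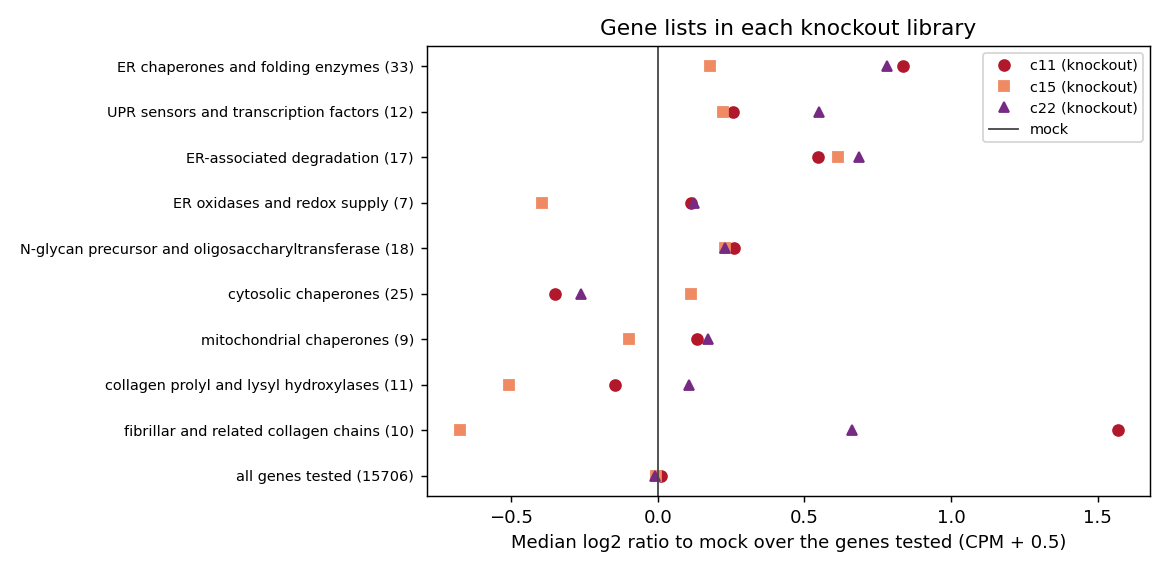
For each gene list, the median of its log2 ratios against mock (0.5 added to each CPM) in c11, c15 and c22, with the number of genes tested in brackets; the line at 0 is mock and the bottom row is all genes tested. Folding and degradation genes lie above 0 in all 3 libraries, as do the lists of unfolded protein response sensors and of N-glycan genes. Cytosolic chaperones lie below 0 in c11 and c22 and at 0.11 in c15.

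The enzymes that oxidise the isomerases and hydroxylate collagen included genes below mock. Ero1l, the ER oxidase that passes electrons from PDI to oxygen and a known hypoxia-induced gene, was at 196, 205 and 85.6 CPM across c11, c15 and c22, against 305 CPM in mock (log2 fold change -0.91, SE 0.51). Its paralogue Ero1lb was at 37.3, 11.4 and 35.8 CPM, against 4.92 CPM in mock (log2 fold change 2.52, SE 0.86). The 2 paralogues thus lay on opposite sides of mock in every library, and neither passed edgeR. The other extremes of the 7 oxidase and redox genes tested were Qsox1, with a log2 fold change of 0.21 (SE 0.69), and Vkorc1, with -0.49 (SE 0.55); 1 gene of that list had every knockout library above mock and 2 below, and edgeR and DESeq2 called 0, with 1 higher at an unadjusted p under 0.05 in edgeR. P4ha1, the alpha subunit that pairs with the P4hb product, was at 128, 85.6 and 173 CPM, against 405 CPM in mock (log2 fold change -1.65, SE 0.41), while P4hb was level. Of 11 collagen hydroxylase genes tested, 1 had every knockout library above mock and 5 below; edgeR called 0, had 3 lower at an unadjusted p under 0.05, and DESeq2 called 1, Plod2, as lower, at 88.1, 76.2 and 92.9 CPM against 248 CPM in mock. The highest of that list were P3h1, with a log2 fold change of 0.38 (SE 0.47), and P4ha3, which was high in c22 alone, at 1.30, 1.44 and 24.0 CPM across c11, c15 and c22, against 0.806 CPM in mock.

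Chaperones of other compartments, and the N-glycan genes of the ER itself, gave median fitted log2 fold changes nearer to mock than the folding genes did. Of 25 cytosolic chaperone genes, 2 had every knockout library above mock, against 21.4% of all genes tested, and 5 below, close to the 22.2% of all genes. The median log2 fold change of this list was -0.14, and edgeR and DESeq2 each called 0, with 1 lower at an unadjusted p under 0.05 in edgeR. Hspa8, the cytosolic counterpart of BiP, was at 1726, 2494 and 1965 CPM across c11, c15 and c22, against 3219 CPM in mock (log2 fold change -0.64, SE 0.30). The lowest was Hspb1, the small heat shock protein HSP27, at 0.0764, 0.304 and 0.698 CPM across c11, c15 and c22, against 6.69 CPM in mock; it was the 1 gene of the list at an unadjusted p under 0.05 (log2 fold change -4.19, SE 0.75, edgeR adjusted p = 0.314). These Hspb1 levels rest on 1, 4 and 9 counts across c11, c15 and c22, against 83 in mock, so depth limits its fold change. The other extremes of the cytosolic list were Hspa1a, with a log2 fold change of -0.90 (SE 0.90), Bag3, with 0.30 (SE 0.43), and Dnajb6, with 0.31 (SE 0.31). Without c15 the median of that list was -0.39. Of 9 mitochondrial chaperone genes, 1 lay above and 1 below mock in all knockout libraries, with a median of 0.05; Hspa9, the mitochondrial HSP70, was at 1787, 1519 and 1351 CPM, against 1224 CPM in mock. The other extremes of that list were Dnaja3, with a log2 fold change of 0.40 (SE 0.40), Trap1, with -0.14 (SE 0.41), and Hspd1, with -0.25 (SE 0.25). Within the ER, of 18 genes of glycan precursor synthesis and oligosaccharyltransferase, 7 lay above and 2 below, with a median of 0.17, and both edgeR and DESeq2 called 0, with 0 at an unadjusted p under 0.05 in edgeR. Its extremes were Alg2, with a log2 fold change of 0.84 (SE 0.36), Ddost, with 0.65 (SE 0.32), Dad1, with -0.31 (SE 0.32), and Mogs, with -0.68 (SE 0.29). By library, the median log2 ratio of the N-glycan list to mock was 0.26, 0.23 and 0.23 across c11, c15 and c22. For the folding genes it was 0.84, 0.18 and 0.78, so in c15 the N-glycan median lay further from mock.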

How the data were processed

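RNA was selected by poly(A) and libraries kept strand, per the labels' protocols. The authors deposited raw read counts per gene, unnormalized. The submitters' processing notes name Trimmomatic 0.38, HISAT2 2.1.0, featureCounts 1.6.3 and GRCm38, without settings. CPM were computed on TMM-scaled library sizes. Genes passing edgeR's filterByExpr (15706, 99.9% of counts) were tested with the robust 2-sided quasi-likelihood test of edgeR 4.0.16 in R 4.3.3, Benjamini-Hochberg adjusted over all of them, threshold 0.05, on 2 residual degrees of freedom. The SE comes from the F statistic. The design did not say which of edgeR's 2 quasi-likelihood fits to use. The version 4 fit (legacy off) was taken as the main one after both had been seen, to match earlier processing of these data, and the legacy fit is an alternative. Further alternatives were DESeq2 1.42.0, limma-voom (limma 3.58.1), other scalings, no filter and leaving out each knockout library. The labels do not say that the knockout tumours came from separate animals, so p-values reflect only the spread among these libraries. Exon lengths came from GENCODE M21, which held all 33 members at the deposited coordinates. The main edgeR fit and the motif search were tested on simulated data, and the other fits were not. With 1 simulated mock and 3 simulated knockout libraries, that fit called 3 of 100 genes given a 4-fold change. A member that did not pass is therefore not shown to be unchanged. The members and lists were chosen with earlier results of these data known. All members were named, with the 2 highest and 2 lowest fold changes of each comparison list among genes averaging 1 CPM or more, and fixed pathway genes; exceptions are marked. Of marker lists only the genes that bear on cell identity were named, chosen after their values were seen.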

Additional observations from a re-analysis of the deposited data

How the results depend on the processing

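Whether members passed the threshold depended on the test and the filter. The main edgeR fit called 0 members, 0 genes higher and 1 lower. DESeq2 called 7 members, 51 genes higher and 67 lower. edgeR's legacy fit without the filter, added after seeing the data, called 5 members (adjusted p 0.01099 for Creld2, 0.01116 for Sdf2l1, 0.03611 for Hspa5, 0.03978 for Hyou1 and 0.04642 for Manf), 12 genes higher and 57 lower, where the version 4 fit without the filter called 0 members and 4 genes lower. The 1 lower gene was lost (0) with limma-voom, with the legacy fit with the filter, also added after seeing the data, and on leaving out c11, c15 or c22 (0 to 0). The cause was not tested. Leaving out a knockout library, the 7 members that DESeq2 called kept log2 fold changes of 1.596 to 2.74. Of 363 fold changes of single members under alternatives, 7 had the other sign, none past a test: Dnajc10 without c11, Fkbp7 and Fkbp11 without c15, and P4hb, Txndc5, Erp29 and Creld1 without c22. Members with every knockout library above mock numbered 19 with upper quartile scaling (19.8% of all genes) and 29 without c15 (35.2% of all genes, with 2 libraries to pass). Without c15, 1338 genes had an unadjusted p under 0.05, against 578 with all libraries. CCACG alone was found in 82.1% and CCAAT alone in 75% of the members' windows, against 51.7% and 43% of tested genes. No paired analysis was possible because mock is 1 library and the knockout columns carry no replicate numbers. Among the members, depth limits Creld1 and Fkbp14, with 32 counts each in mock.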
